A study of Mus musculus with 12 samples.

Results

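The primitive streak and early mesoderm genes T, Mixl1, Eomes, Gsc, Mesp1, Evx1, Foxf1 and Kdr were followed through 4 stages of guided cardiac differentiation of mouse embryonic stem cells. A gene was taken from a probe set whose platform symbol is exactly that gene, and of its probe sets the brightest over all 12 arrays was used. This gave 7 of the 8 genes among 18193 named genes, and 7 among the 13156 genes bright enough to be tested; T, the T-box founder gene of the streak, had no probe set named for it alone and is not analysed here. The cells were of the feeder-free murine line CGR8, and all 4 stages derive from this line. ES-LIF(+) cells were kept with leukemia inhibitory factor in 7.5% serum, and ES-LIF(-) cells had spent 48 h without it. Cardiopoietic cells (CP) and cardiomyocytes (CM) both came from stem cells stimulated with a cocktail of BMP, TGFβ, IL-13, IL3, IGF1, VEGF, EGF, FGF and IL6. CP were then held for 5 days in 3% serum with 30 ng/ml TNFα, whereas CM were held for 9 days in 20% serum, and both were enriched on Percoll density gradients, with lower densities for CP. CP and CM therefore differ in time, serum, TNFα and gradient together, and these cannot be told apart.

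In the gastrulating embryo, NODAL, WNT, BMP and FGF signals from the posterior epiblast and its neighbours turn on streak transcription factors, and epithelial cells leave through the streak as mesoderm and endoderm. EOMES and MIXL1 act across the early streak, GSC marks its anterior end and the organizer, EVX1 its posterior part. MESP1 then marks the migrating cells that give rise to the heart, FOXF1 the lateral and splanchnic mesoderm, and KDR, the receptor for VEGF, the mesoderm from which blood, vessel and heart cells arise.

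Each stage had 3 arrays (n = 3 throughout). The median signal of all probe sets was 101 to 110.9 on ES-LIF(+) arrays, 104.3 to 110.2 on ES-LIF(-), 128.9 to 136.3 on CP and 127.7 to 144.1 on CM, so signals near these values are read close to background. CM carried the markers of its label, and both stem cell stages those of pluripotent cells, whereas no list of markers defines CP. The summed signal of 12 cardiomyocyte markers was 846.4 to 998.1 in ES-LIF(+), 919.9 to 1137.5 in ES-LIF(-), 2315.5 to 2371.5 in CP and 134335 to 146230 in CM. That of 10 pluripotency markers was 85738.8 to 87095.5, 55349 to 60710.8, 65215.7 to 71467.4 and 18032.2 to 24949.1 in the same order. Of the 10 fibroblast and mesenchyme markers, all lay above the array median in CP and CM, with sums of 128647 to 135610 and 73064.9 to 73859.7, against 1243.1 to 1620.3 in ES-LIF(+). In CP 5 of the 12 cardiomyocyte markers were above the median on no array, and all 10 pluripotency markers were above it on every array. These are bulk RNA samples, in which more cells that express a gene and more RNA per cell cannot be told apart.

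All 7 genes changed across the 4 stages at an adjusted p under 0.05 (limma's moderated F test), as did 73.2% of all tested genes. Without CM replicate 1 or CM replicate 2 the number was 6, as it was with an unmoderated one-way analysis of variance, the methods' test. Mixl1, Eomes, Mesp1, Evx1 and Kdr had their highest mean in CM, as did 35.7% of all genes that passed this test, and Gsc and Foxf1 in CP, as did 14.5%. After LIF withdrawal 2 of 7 genes rose, Eomes and Mixl1, where 4.04% of all tested genes were called higher. In CP 4 of 7 rose relative to ES-LIF(+), Eomes, Mixl1, Gsc and Foxf1, where 18.9% of all tested genes were called higher. In CM all 7 rose relative to ES-LIF(+), against 25.8% of all tested genes. No member was called lower in any of the 6 comparisons. Of all tested genes, 3.68% were called lower in ES-LIF(-), 13.4% in CP and 24% in CM against ES-LIF(+), 14.6% in CP and 24.5% in CM against ES-LIF(-), and 10.5% in CM against CP. The median change of the 7 genes was 0.76 in ES-LIF(-), 0.99 in CP and 1.90 in CM on the log2 scale, against 0.03, 0.04 and 0.06 over all tested genes. Gsc and Evx1 passed the filter on dim probe sets on 5 and 3 arrays, chiefly in the stages where they were high, so their inclusion in these counts was not independent of the change. The same holds for genes of the lists below that exceeded the array median in 1 stage only. Where the signal in a stage lies far below the array median, as for Gsc and several genes named below, the size of a log2 change depends on the added constant of 16. The scaling matters for small changes: centring each array on its median moved all CP changes against ES-LIF(+) by -0.28 and all CM changes by -0.32, and left the counts of members in these 3 comparisons as they were. The median over all tested genes was then -0.24 in CP and -0.26 in CM against ES-LIF(+). Shares of all tested genes are given without centring throughout, so counts after centring have no share of their own to be read against.

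**Figure D1:**
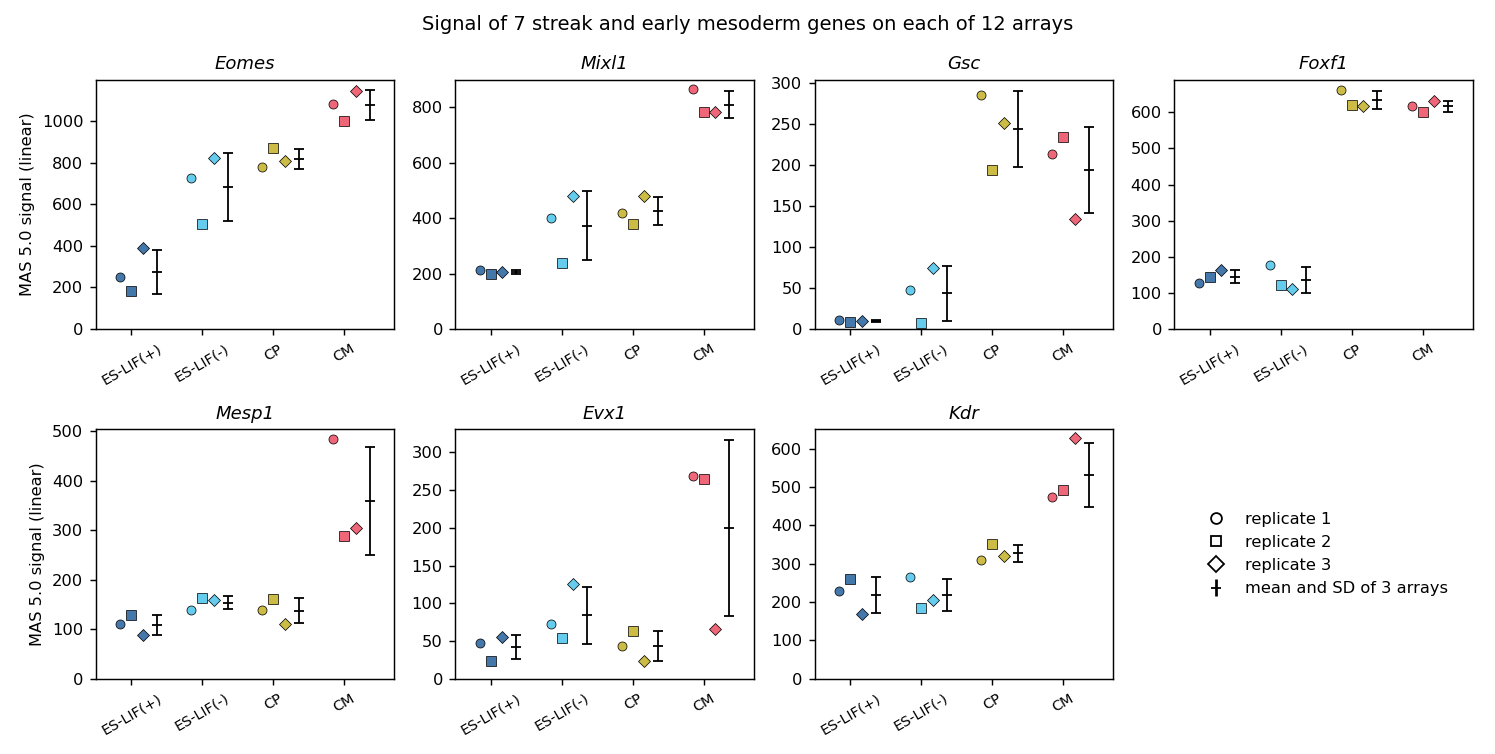
Signal of each gene on each array (vertical axis, linear MAS 5.0 signal from 0, with its own range per gene) at the 4 stages (horizontal axis). Circles, squares and diamonds are replicates 1, 2 and 3, and the bar is the mean with its SD over 3 arrays. Eomes and Mixl1 already lie higher in ES-LIF(-), Foxf1 and Gsc are high in CP and CM, and Mesp1 is high in CM.

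Eomes, a T-box factor needed for the first steps of mesoderm and definitive endoderm formation, rose at every stage after ES-LIF(+). It read 251.4, 181.8 and 389.9 in ES-LIF(+), 723.9, 504.6 and 821.3 in ES-LIF(-), 777.7, 872.1 and 808.7 in CP and 1082.1, 999.6 and 1145.8 in CM. The ES-LIF(+) arrays lay below all others and the CM arrays above all others, while ES-LIF(-) and CP overlapped. Its means were 683 ± 162 in ES-LIF(-) and 274 ± 106 in ES-LIF(+) (SD), a change of 1.30 ± 0.21 on the log2 scale (SE, adjusted p = 0.000985). The change was 1.59 in CP (adjusted p = 2.47e-05) and 1.97 in CM (adjusted p = 1.22e-06), both against ES-LIF(+). Neighbouring stages in this order above ES-LIF(+) did not differ beyond their spread: 0.28 between CP and ES-LIF(-) (95% interval -0.18 to 0.74, adjusted p = 0.296) and 0.39 between CM and CP (95% interval -0.07 to 0.84, adjusted p = 0.196). Between CM and ES-LIF(-) the change of 0.67 was called (adjusted p = 0.0138), but after median centring it was 0.36 (adjusted p = 0.165), and without ES-LIF(-) replicate 2 it was 0.47 (adjusted p = 0.0811). A second Eomes probe set rose by 1.05 in ES-LIF(-), 1.43 in CP and 1.51 in CM against ES-LIF(+) on the log2 scale, and its Pearson r with the first over the 12 arrays was 0.93. On this probe set CM and CP overlapped (0.08, adjusted p = 0.723). Its change between CM and ES-LIF(-), 0.46 (adjusted p = 0.0163), was under the fold limit and was not called.

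Mixl1, a paired-type homeobox gene of the streak, followed the same order of stages. It read 212.8, 198.3 and 205.4 in ES-LIF(+), 400.0, 237.9 and 481.1 in ES-LIF(-), 419.8, 377.2 and 479.6 in CP and 865.2, 780.7 and 781.1 in CM. The CM arrays lay apart from all others, and the ES-LIF(-) arrays spanned the whole range of CP. The rise in ES-LIF(-) was 0.76 ± 0.20 on the log2 scale (SE, adjusted p = 0.0201). It was the less firm of the pair, since it no longer passed without ES-LIF(+) replicate 2 (0.73, adjusted p = 0.0586), without ES-LIF(-) replicate 1 (0.68, adjusted p = 0.0764) or without ES-LIF(-) replicate 3 (0.55, adjusted p = 0.0941). In CP the rise was 0.99 (adjusted p = 0.000732), and in CM 1.90 (adjusted p = 7.21e-07), both against ES-LIF(+). CM exceeded CP by 0.91 (adjusted p = 0.00236), whereas CP and ES-LIF(-) did not differ beyond their spread (0.23, 95% interval -0.19 to 0.65, adjusted p = 0.354).

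Gsc, the homeobox gene of the anterior streak and organizer, rose in CP and in CM. It read 11.0, 8.7 and 9.8 in ES-LIF(+), 47.9, 8.0 and 75.1 in ES-LIF(-), 286.0, 194.7 and 251.8 in CP and 214.0, 234.6 and 134.4 in CM. All 6 stem cell arrays were below their array medians, whereas the CP arrays were at 1.51 to 2.10 times the median and the CM arrays at 0.93 to 1.84 times. The rise was 3.32 ± 0.43 in CP (SE, adjusted p = 1.64e-05) and 2.99 ± 0.43 in CM (SE, adjusted p = 2.22e-05), both against ES-LIF(+) on the log2(signal + 16) scale. These sizes depend on the added constant: with 64 and with 1 they were 2.05 and 4.49 in CP and 1.79 and 4.14 in CM. CM and CP overlapped and did not differ beyond their spread (-0.33, 95% interval -1.24 to 0.59, adjusted p = 0.62). In ES-LIF(-) the change of 1.01 was not called (95% interval 0.09 to 1.93, adjusted p = 0.158), with replicates 1 and 3 above and replicate 2 below every ES-LIF(+) array. Without ES-LIF(-) replicate 2 it was 1.56 and was called (adjusted p = 0.0119).

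ES-LIF(-) replicate 2 was thus the lowest of its stage for Eomes, Mixl1 and Gsc, and it was also the lowest for Evx1 and Kdr. It was the highest of its stage for Mesp1. The part of this array in the Gsc result is given by the value without it, and what sets the array apart was not tested.

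The promoters of these genes were read from RefSeq (GRCm38.p6) as the 250 bases before each annotated start, and 5 of the 7 genes had an entry. Those of Eomes, Gsc and Mesp1 are shown because these genes first rose in different stages: Eomes in ES-LIF(-), Gsc in CP and Mesp1 in CM. Capitals mark motif matches on either strand, and no Eomes base is in capitals because none of the motifs searched matched there.
Eomes (chr9:118477939-118478188, plus strand): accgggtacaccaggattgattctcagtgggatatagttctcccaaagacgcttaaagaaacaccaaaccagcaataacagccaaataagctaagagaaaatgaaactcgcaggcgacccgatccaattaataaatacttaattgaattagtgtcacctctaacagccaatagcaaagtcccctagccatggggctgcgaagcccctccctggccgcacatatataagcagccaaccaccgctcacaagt
Gsc (chr12:104473237-104473486, minus strand): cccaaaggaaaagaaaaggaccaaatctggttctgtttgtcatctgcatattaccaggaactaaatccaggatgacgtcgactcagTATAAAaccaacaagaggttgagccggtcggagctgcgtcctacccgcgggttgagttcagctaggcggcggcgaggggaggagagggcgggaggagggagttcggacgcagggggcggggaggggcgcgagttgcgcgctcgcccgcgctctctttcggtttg
Mesp1 (chr7:79793591-79793840, minus strand): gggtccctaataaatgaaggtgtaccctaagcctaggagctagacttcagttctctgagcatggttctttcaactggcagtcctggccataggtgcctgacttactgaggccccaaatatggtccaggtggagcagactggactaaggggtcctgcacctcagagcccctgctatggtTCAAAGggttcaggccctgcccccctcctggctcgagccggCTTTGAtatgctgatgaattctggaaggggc
The 6 motifs were searched on both strands, with their share counted over 32851 promoters of the same length, and no 2 matches shown overlap. The T-box motif TCACACC occurs in 3.33% of promoters and the TCF/LEF motif CTTTGA in 13.8%. The GSC-type homeodomain motif TAATCC occurs in 6.25%, the FOXH1-type motif ATCCACA in 2.78%, the GATA motif AGATAA in 9.99% and the TATA box TATAAA in 12.4%. Mesp1 had 2 TCF/LEF matches, starting 72 bases before the start site on the opposite strand and 31 bases before it on the same strand. Gsc had 1 TATA box match 164 bases before its start site, and the Evx1 and Kdr promoters had no match. The Gsc promoter was rich in CpG, with 22 sites, more than 85.2% of promoters hold, and the Mesp1 promoter was poor in them, with 2 sites, more than 18.8% hold. Matches are letters in a window and say nothing on binding.

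Mesp1, the basic helix-loop-helix factor of the first cardiac precursors, rose in CM and was not called in CP. It read 109.8, 128.5 and 88.2 in ES-LIF(+), 138.8, 163.1 and 159.2 in ES-LIF(-), 139.2, 160.9 and 110.7 in CP and 483.4, 288.3 and 305.0 in CM. The 3 CM arrays were above the other 9, which lay close to their array medians. Its mean was 359 ± 108 in CM and 137 ± 25.2 in CP (SD), a change of 1.27 ± 0.24 on the log2 scale (SE, adjusted p = 0.00073). Against ES-LIF(+) the change was 1.56 in CM (adjusted p = 3.62e-05), and 0.29 in CP, which was not called (95% interval -0.21 to 0.80, adjusted p = 0.33). The order below CM was ES-LIF(+), CP and ES-LIF(-), and none of these neighbours differed beyond their spread. Mesp2, its close relative in the same gene family, averaged 169 ± 28.6 in CM and 140 ± 58.5 in CP (SD) and was not called in any of the 6 comparisons.

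Evx1, the even-skipped-type homeobox gene of the posterior streak, rose in CM, and was above the array median on only 3 of the 12 arrays. It read 48, 24 and 54.9 in ES-LIF(+), 72.0, 54.1 and 125.5 in ES-LIF(-), 43.7, 63.7 and 23.3 in CP and 269.1, 264.2 and 65.4 in CM. CM replicates 1 and 2 were above every other array, but CM replicate 3 was close to CP replicate 2 and lay below its array median. The change in CM was 1.72 ± 0.49 against ES-LIF(+) (SE, adjusted p = 0.00706) and 1.71 ± 0.49 against CP (SE, adjusted p = 0.0151). The second of these was lost without CP replicate 3 (adjusted p = 0.063), CM replicate 1 (adjusted p = 0.0781) or CM replicate 2 (adjusted p = 0.0772). CM versus ES-LIF(-) was not called (0.97, adjusted p = 0.104), and was 1.56 (adjusted p = 0.00707) without CM replicate 3. The same CM replicate 3 was the highest of its stage for the primitive globin Hbb-bh1, which read 472, 1735.4 and 8575.2 in CM replicates 1, 2 and 3 and at most 13.5 on the other 9 arrays, and the part of such cells in the Evx1 values was not tested. CP and ES-LIF(+) did not differ beyond their spread (0.01, 95% interval -1.04 to 1.07, adjusted p = 0.984). Evx2, its neighbour in the family, was not called in any comparison.

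Foxf1, a forkhead factor of lateral plate and splanchnic mesoderm, had the smallest adjusted p of the 7 genes in the F test over the stages (1.09e-08). It read 126.9, 142.9 and 163.6 in ES-LIF(+), 177.1, 120.8 and 111.0 in ES-LIF(-), 661.9, 620.0 and 618.3 in CP and 616.5, 601.9 and 631.7 in CM. CP and CM overlapped, as did the stem cell stages. The rise was 2.02 ± 0.17 in CP (SE, adjusted p = 2.14e-07) and 1.99 ± 0.17 in CM (SE, adjusted p = 8.41e-08), both against ES-LIF(+). CM and CP did not differ beyond their spread (-0.04, 95% interval -0.40 to 0.32, adjusted p = 0.896), nor did ES-LIF(-) and ES-LIF(+) (-0.09, 95% interval -0.45 to 0.27, adjusted p = 0.801). A second probe set rose by 2.23 in CP and 2.52 in CM against ES-LIF(+), and its r with the first was 0.90. The fibroblast and mesenchyme markers, with their sums given above, were high in the same 6 arrays as Foxf1. So was the sum of the mesothelial markers, at 11648.9 to 12226.5 in CP and 3924.8 to 5003.6 in CM, against 549 to 873.4 in ES-LIF(+). Wt1, also among these markers, was not high there. It read 231.6, 255.3 and 238.8 in CP and 153.4, 191.9 and 164.6 in CM, against 265.9, 150.4 and 127.7 in ES-LIF(+) and 431.2, 555.1 and 316.9 in ES-LIF(-). Msln, the defining mesothelial gene, was above the array median in all 3 CP arrays and in no CM array. The part of such cells in the Foxf1 result was not tested. Foxf2, the relative of Foxf1, rose by 1.14 in CP (adjusted p = 0.0265) and 1.03 in CM (adjusted p = 0.033) against ES-LIF(+), from signals below the array median, and after median centring the changes were 0.86 and 0.71 and were not called.

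Kdr, the VEGF receptor of early mesoderm, rose in CM. It read 229.3, 260.4 and 168.1 in ES-LIF(+), 266.3, 185.6 and 204.7 in ES-LIF(-), 310.2, 351.1 and 320.0 in CP and 473.4, 491.8 and 627.3 in CM. CM arrays were above all CP arrays, and CP arrays above all stem cell arrays. The change in CM was 1.23 ± 0.19 against ES-LIF(+) (SE, adjusted p = 4.04e-05) and 0.66 ± 0.19 against CP (SE, adjusted p = 0.0132). The difference from CP was lost without CM replicate 3 (0.54, adjusted p = 0.0641), the array with the highest globins (Hbb-bh1 8575.2, Hba-x 8023 and Hbb-y 3359.2, against at most 1735.4, 712.4 and 122.7 on the other CM arrays). CP exceeded ES-LIF(+) by 0.56 (adjusted p = 0.0225), a fold of 1.48 just under the limit of 1.5, so it was not called, and after median centring it was 0.28 (adjusted p = 0.208). ES-LIF(-) and ES-LIF(+) did not differ beyond their spread (0.00, 95% interval -0.40 to 0.40, adjusted p = 0.995). Of the 8 endothelial markers, 6 were above the array median in all CM arrays, 4 in all CP arrays and 5 in all ES-LIF(+) arrays, with sums of 1826.7 to 2533.8, 1537 to 1681.7 and 1500 to 2150.6, and Tie1 was above the median on no array. Among the CM arrays, replicate 3 was the highest for Tie1 (126.7, below its array median), Pecam1, Tek, Esam, Cldn5 and Robo4. It was the lowest for Cdh5 (341.5) and Emcn (432). The part of vessel and blood cells in the Kdr result was not tested.

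**Figure D2:**
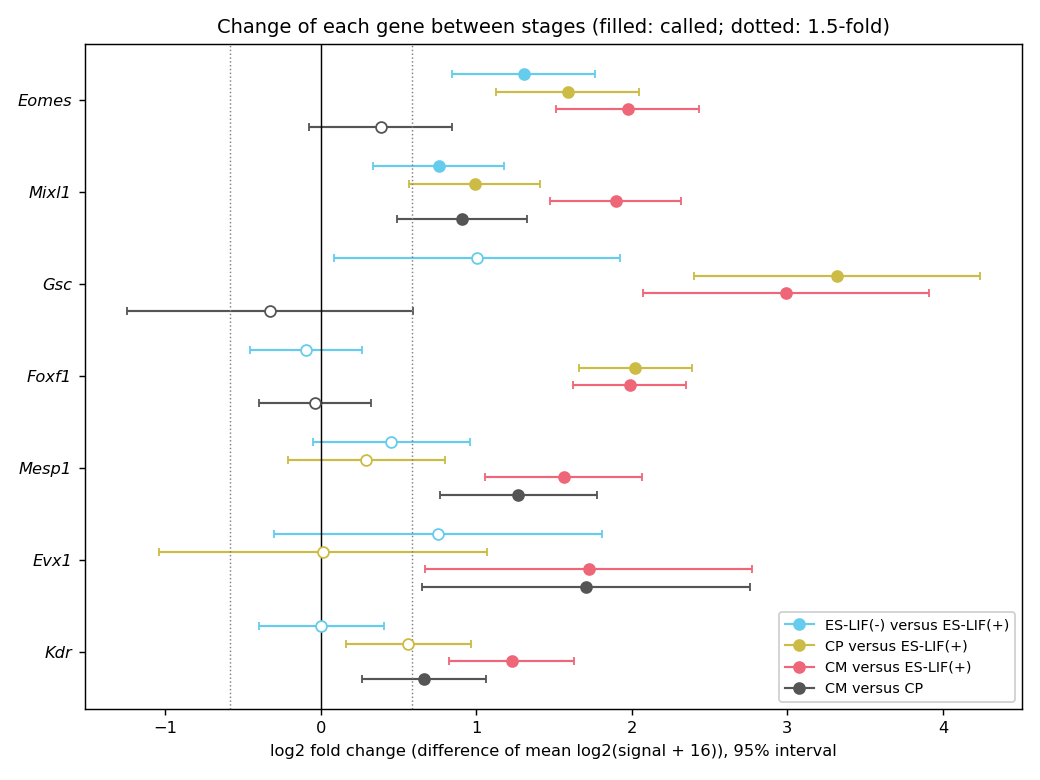
Log2 fold change of each gene (horizontal axis, on log2(signal + 16), with 95% intervals) for 4 comparisons. Filled points are called at adjusted p under 0.05 and fold above 1.5, the dotted lines mark a fold of 1.5, and positive values are higher in the stage named first. All 7 CM versus ES-LIF(+) points are filled, and for CP versus ES-LIF(+) those of Eomes, Mixl1, Gsc and Foxf1.

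The remaining counts read against their backgrounds as follows. CP exceeded ES-LIF(-) in 2 of 7 genes, Gsc and Foxf1, where 18.4% of all tested genes were called higher. CM exceeded ES-LIF(-) in 6 of 7, all but Evx1, where 24.4% were called higher, and after median centring in 5. CM exceeded CP in 4 of 7, Mixl1, Mesp1, Evx1 and Kdr, where 9.14% were called higher. The comparisons against one stage share its 3 arrays, so these counts are not independent of each other. Groups did not overlap for 3 of the 7 genes in ES-LIF(-) against ES-LIF(+), for 5 in CP and for all 7 in CM, all of them higher, where 17.6%, 30.8% and 35.4% of all tested genes were higher without overlap. They did not overlap for 3 genes in CP and 6 in CM against ES-LIF(-) and for 5 in CM against CP, again all higher, where the shares of all tested genes were 30%, 33.9% and 22.1%.

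The 7 patterns differed among themselves. Over the 12 arrays, which share the 4 stages, the Pearson r between pairs of members on log2 values ran from 0.24 for Evx1 and Foxf1 to 0.90 for Gsc and Foxf1. Eomes and Mixl1 had an r of 0.89, and Mesp1 and Evx1 one of 0.77. Among 13155 other tested genes, those most like Foxf1 were Fbln2, Svep1 and P4ha1, each with an r of 0.99. Fbln2, which encodes a matrix fibulin and is one of the fibroblast markers, read 16411.6, 15823.4 and 16103.4 in CP, against 135.5, 185.9 and 168.6 in ES-LIF(+). Those most like Mesp1 were Sphkap, Lmod2 and Clip4, each at 0.95. Lmod2, a thin-filament protein of heart muscle, read 696.7, 587.5 and 580.8 in CM, against 18.7, 43.4 and 5.3 in CP. Those most like Mixl1 were Rnf19a (0.99), Tbx18 (0.97) and Ank3 (0.96). Those most like Eomes were Slc40a1, which encodes an iron exporter (0.97), Lmo4 (0.97) and Zmynd11 (0.96), and those most like Gsc were Man2a1 (0.98), Mgat2 (0.97) and Mdfic (0.97), of which the first 2 encode Golgi enzymes of N-glycan processing. Those most like Kdr were Gm9112, Rcor3 and Zbtb41, each at 0.97, and those most like Evx1 were Shb (0.90), Tprgl (0.89) and Hmgn3 (0.89). These are descriptions over arrays that share their stages.

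The signals that induce the streak did not move one way. Of 24 tested ligands, receptors and transducers, 8 rose and 4 fell in CP against ES-LIF(+), with a median of 0.17, where 18.9% of all tested genes rose and 13.4% fell. In CM 9 rose and 5 fell, with a median of 0.04, where 25.8% of all tested genes rose and 24% fell. After median centring 7 rose and 7 fell in CP, and 8 rose and 8 fell in CM. Centring lowered the changes of all genes in both comparisons, and the share over all tested genes after centring was not computed. Nodal, the ligand upstream of Eomes and Mixl1, read 1599.9 ± 98.8 in CP and 2661.9 ± 259.9 in ES-LIF(+) (SD), a fall of -0.73 (adjusted p = 7.91e-05). In CM it read 662.7 ± 95.4 (SD), -1.99 against ES-LIF(+) (adjusted p = 9.94e-10). In ES-LIF(-) it had its highest mean, 3336.7 ± 322.2 (SD), which was not called against ES-LIF(+) (0.32, adjusted p = 0.0753). Its coreceptor Tdgf1 (Cripto) changed by -0.93 in CP and -2.08 in CM on the log2 scale (adjusted p = 1.12e-06 and 7.57e-11). Bmp4, the posterior BMP ligand, read 1143.2, 707.2 and 760.9 in ES-LIF(+), 243.7, 312.0 and 379.9 in ES-LIF(-), 1793.5, 1576.8 and 1594.1 in CP and 1933.2, 1595.6 and 1633.5 in CM. It fell in ES-LIF(-) (-1.42, adjusted p = 7.16e-05) and rose in CP (0.94, adjusted p = 0.000371) and CM (0.997, adjusted p = 0.000134), each against ES-LIF(+). Fgf8, an FGF ligand of the streak, rose in ES-LIF(-) (1.08, adjusted p = 0.000899) and in CP (2.16, adjusted p = 1.55e-07). Wnt5a, a ligand of non-canonical WNT signaling, rose in CP (1.41, adjusted p = 0.000139) and further in CM (2.79, adjusted p = 6.3e-08). Wnt3, the WNT ligand that starts the streak, was too dim to be tested: it read 53.4, 6.0 and 36.8 in ES-LIF(+) and at most 125.6 on any array.

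Secreted and intracellular antagonists of the same signals were mostly higher in CP and CM. Of 15 tested, 13 rose and none fell in CP against ES-LIF(+), with a median change of 1.16 against 0.04 over all tested genes, and 10 rose after median centring. In CM 11 rose and 2 fell. Of all tested genes, 18.9% rose and 13.4% fell in CP, and 25.8% rose and 24% fell in CM. Cer1, a secreted NODAL and BMP antagonist, read 688.8, 678.3 and 772.6 in CP, against 12.3, 16.5 and 61.4 in ES-LIF(+) (4.13, adjusted p = 2.11e-07). Dkk2, a modulator of the WNT coreceptors, read 821.1, 670.3 and 1079.7 in CP, against 2.2, 3.2 and 2.4 in ES-LIF(+), and was called higher (adjusted p = 2.95e-09), with no size given because the ES-LIF(+) signals are far below the array median. Grem1, a BMP antagonist, was higher in CP (4.47, adjusted p = 6.32e-10) as well as in CM (3.90, adjusted p = 1.02e-09). The NODAL antagonist Lefty1 was 1 of the 2 that fell in CM against ES-LIF(+) (-2.06, adjusted p = 3.17e-10). It read 1456.0, 1108.9 and 1276.1 in CM, against 7865.1, 8061.9 and 7508.2 in CP (-2.60, adjusted p = 3.09e-10). After LIF withdrawal 2 rose and 2 fell, where 4.04% of all tested genes rose and 3.68% fell. Fst, which binds activin (1.64, adjusted p = 5.81e-06), and Sfrp2, a WNT modulator (1.03, adjusted p = 2.62e-05), rose. The NODAL antagonist Lefty2 (-0.64, adjusted p = 0.00709) and the WNT modulator Sfrp1 (-0.76, adjusted p = 0.00153) fell.

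**Figure D3:**
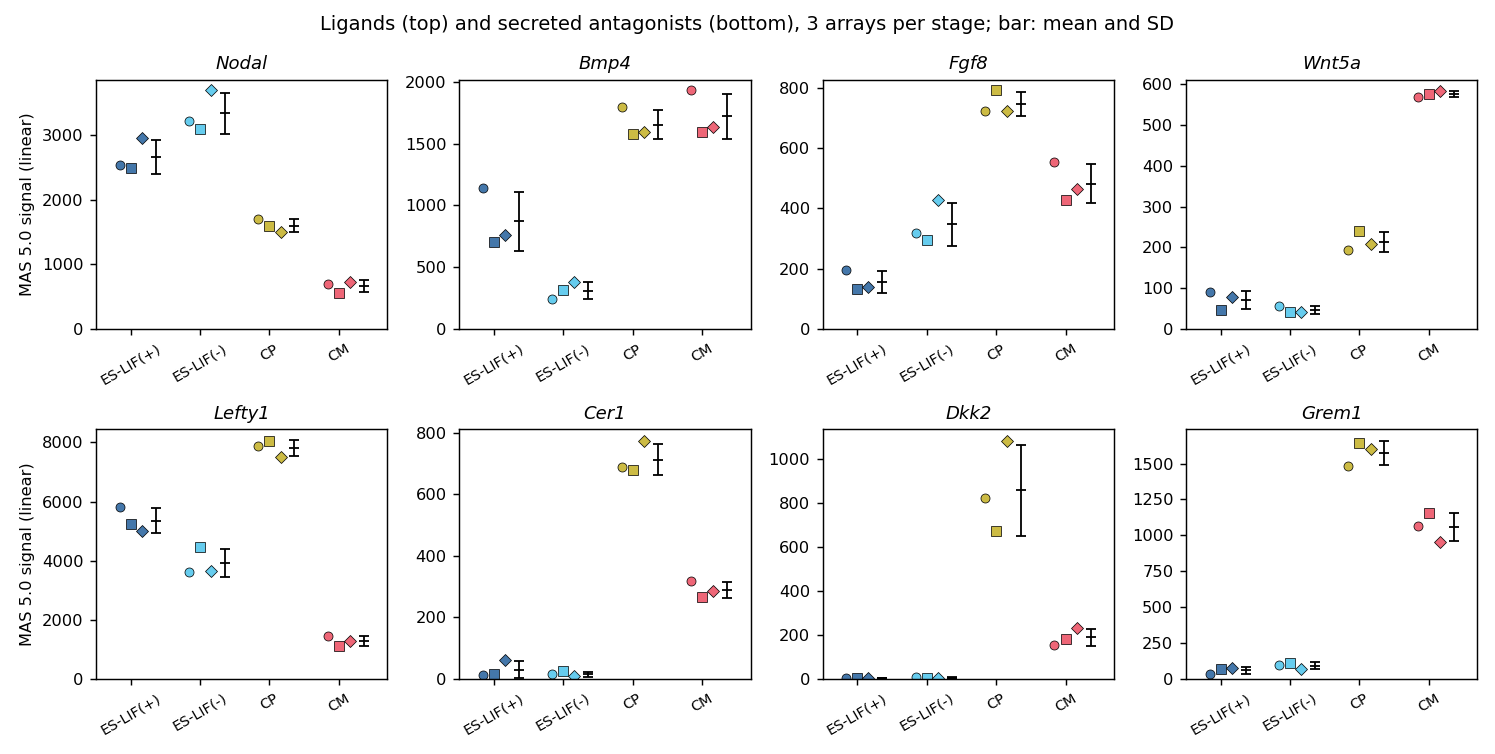
Signal of 4 ligands (top) and 4 antagonists (bottom) on each array (vertical axis, linear MAS 5.0 signal from 0, with its own range per gene) at the 4 stages. Circles, squares and diamonds are replicates 1, 2 and 3, and the bar is the mean with its SD over 3 arrays. Nodal and Lefty1 are lowest in CM, and Cer1, Dkk2 and Grem1 are highest in CP.

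Of 14 tested WNT-responsive posterior streak genes, 2 rose and 4 fell in CP against ES-LIF(+), with a median of -0.19, where 18.9% of all tested genes rose and 13.4% fell. In CM 3 rose and 2 fell with a median of 0.21, where 25.8% of all tested genes rose, but after median centring 2 rose and 4 fell. In ES-LIF(-) 5 rose and 1 fell, where 4.04% of all tested genes rose. Lef1, a nuclear effector of WNT signaling, rose by 1.27 in ES-LIF(-) against ES-LIF(+) (adjusted p = 0.00235), and was lower in CP than in ES-LIF(-) (-2.08, adjusted p = 3.88e-06). Cdx2, a caudal-type homeobox gene of the posterior embryo, read 30.3, 60.2 and 19.3 in CP, against 146.9, 49.1 and 120.7 in ES-LIF(+) (-1.18, adjusted p = 0.0222), and with 232.4, 152.0 and 255.2 in CM it exceeded CP (2.17, adjusted p = 0.000581). Cyp26a1, a retinoic acid-degrading enzyme of the streak, rose by 1.76 in CP (adjusted p = 8.68e-07) and 1.88 in CM (adjusted p = 1.49e-07), and Rspo3, a secreted WNT enhancer, by 1.59 and 2.16 (adjusted p = 3.37e-05 and 6.87e-07), all against ES-LIF(+). Fgf17 fell, with changes of -1.59 in ES-LIF(-), -1.53 in CP and -2.44 in CM against ES-LIF(+). Tbx6, the T-box factor of paraxial mesoderm, was too dim to be tested and read at most 133.5 on any array.

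Of 16 tested genes of the anterior streak, node and definitive endoderm, 6 rose and 1 fell in CP against ES-LIF(+), with a median of 0.67, and 8 rose and 4 fell in CM. After median centring 6 rose and 2 fell in CP, and 7 rose and 6 fell in CM. Of all tested genes, without centring, 18.9% rose and 13.4% fell in CP, and 25.8% rose and 24% fell in CM. Foxa2, a forkhead factor of the node and endoderm, read 786.9, 712.3 and 759.2 in CP, against 136.7, 110.9 and 36.6 in ES-LIF(+) (2.93, adjusted p = 1.72e-06). Lhx1, a LIM homeobox partner of the organizer, rose by 3.88 in CP (adjusted p = 6.27e-06). Both were thus high in the stages in which Gsc was high. Otx2, an anterior homeobox gene that primed epiblast also expresses, rose in ES-LIF(-) (1.90, adjusted p = 7.81e-08). It was lower in CP and CM than in ES-LIF(-) (-1.88 and -2.64, adjusted p = 5.32e-09 and 5.1e-11). The 1 that fell in CP was Pou3f1 (-1.79, adjusted p = 1.13e-08). Pou3f1 fell in CM too (-2.73, adjusted p = 4.17e-11), as did Trh (-0.88, adjusted p = 3.74e-05) and Gsc2 (-0.96, adjusted p = 0.00434), all against ES-LIF(+). The 10 endoderm markers summed to 1827.4 to 2186.3 in CP, 1821.2 to 3537.3 in CM and 545.9 to 754.3 in ES-LIF(+), while Afp, Apoa1 and Apob were above the array median on no array. Sox17, an endoderm factor, read 689, 555 and 587.9 in CP, against 78, 122 and 85.9 in ES-LIF(+), and the part of endoderm in the Gsc and Eomes values was not tested.

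Of 18 tested cardiac mesoderm genes that accompany or follow Mesp1, 11 rose and none fell in CP against ES-LIF(+), with a median of 1.38, and 17 rose and none fell in CM, with a median of 3.48. Mesp1 itself was not called in CP against ES-LIF(+). Between CM and CP, where Mesp1 rose, 13 rose and none fell. The cardiomyocyte markers, whose sums are given above, were high in the same CM arrays, and the part of cardiomyocytes in this list and in the Mesp1 values was not tested. Of all tested genes, 18.9% rose and 13.4% fell in CP against ES-LIF(+), 25.8% and 24% in CM against ES-LIF(+), and 9.14% and 10.5% in CM against CP. Tbx20, a cardiac T-box factor, read 5576.4, 4728.5 and 4395.5 in CM, against 285, 219.4 and 241.9 in CP (4.22, adjusted p = 2.34e-09). Myocd, a coactivator of cardiac and smooth muscle genes, read 2031.6, 1969.4 and 1940.2 in CM, against 100.8, 63 and 104.8 in CP (4.27, adjusted p = 4.08e-08). Of 14 T-box genes outside the members with a probe set, 8 were bright enough to be tested. Among these, 4 rose and 1 fell in CP against ES-LIF(+), and 2 rose after median centring. In CM 6 rose and 1 fell. Tbx2 and Tbx18 exceeded the array median in CM only, so their place in the CM count was not independent of their rise there. The 1 that fell in each was Mga, whose protein represses germline genes in stem cells (-1.07, adjusted p = 1.56e-06 in CP, and -1.83, adjusted p = 1.87e-09 in CM). Tbx3 fell in ES-LIF(-) (-1.34, adjusted p = 4.24e-05).

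Lateral plate genes, the group of Foxf1, rose in 10 and fell in 3 of 19 tested in CP against ES-LIF(+), with a median of 1.14, and rose in 12 and fell in 4 in CM. Of all tested genes, 18.9% rose and 13.4% fell in CP, and 25.8% rose and 24% fell in CM. Prrx1, a homeobox gene of lateral plate mesenchyme, read 1097.6, 1110.1 and 1157 in CP, against 44.3, 40.4 and 22.1 in ES-LIF(+) (4.49, adjusted p = 3.25e-09). Osr1, a factor of splanchnic mesoderm, read 1095.6, 996.1 and 663.6 in CM, against 10.3, 12.4 and 15.2 in ES-LIF(+) (adjusted p = 6.14e-10). Tbx18, a factor of the epicardium, read 754.3, 649.4 and 631 in CM, against 14, 16.5 and 6.1 in ES-LIF(+) (adjusted p = 8.45e-08). Hemangioblast and endothelial genes, the group of Kdr, rose in 7 and fell in 3 of 28 tested in CP (median 0.29), near the shares of all tested genes. After median centring 4 were higher and 4 lower. In CM 12 rose and 3 fell (median 0.66), with 8 higher and 3 lower after median centring. The 3 that fell were Tek, Nrp2 and Pecam1 in both comparisons. Between CM and CP 7 rose and 1 fell, where 9.14% of all tested genes rose and 10.5% fell. The 1 that fell was Cd34 (-2.58, adjusted p = 1.62e-07). Lmo2 and Tal1, partners in the transcription complex that starts blood formation, rose in CM against CP by 2.68 (adjusted p = 5.32e-05) and 1.76 (adjusted p = 0.000927), with Lmo2 at 649, 598.8 and 585 in CM, against 26.9, 124 and 140.6 in CP. The 6 primitive blood markers with a probe set summed to 867.2 to 20655.7 in CM and 222 to 450.6 in CP, and their part in these changes was not tested. Etv2, the ETS factor upstream of Lmo2 and Tal1, rose by 0.67 in CM against CP (adjusted p = 0.0163). It was not called in CM against ES-LIF(+) (0.49, adjusted p = 0.0412, under the fold limit) or against ES-LIF(-) (0.18, adjusted p = 0.461). Flt1, another VEGF receptor, rose by 1.44 in CP (adjusted p = 0.000127) and 1.76 in CM (adjusted p = 9.54e-06), and their ligand Vegfa by 0.78 (adjusted p = 0.00302) and 0.87 (adjusted p = 0.000832), all against ES-LIF(+). The Vegfa changes were 0.49 and 0.55 after median centring and were then not called.

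The genes of epithelial-mesenchymal transition, by which cells leave the streak, rose in 11 and fell in 2 of 17 tested in CP against ES-LIF(+) (median 1.47) and rose in 11 and fell in 3 in CM (median 1.55). Of all tested genes, 18.9% rose and 13.4% fell in CP, and 25.8% rose and 24% fell in CM. The fibroblast and mesenchyme markers, whose sums are given above, were high in the same CP and CM arrays, and their part in this list and in the lateral plate list was not tested. Snai2, a repressor of epithelial genes, read 1169.1, 1166.2 and 1136.4 in CP, against 52.4, 31.1 and 68.9 in ES-LIF(+) (4.18, adjusted p = 3.95e-09). Cdh1, which encodes E-cadherin, fell in CP (-1.12, adjusted p = 1.02e-08) and further in CM (-1.60, adjusted p = 7.27e-11), while Cdh2, which encodes N-cadherin, rose by 2.59 in CM (adjusted p = 2.51e-12). In ES-LIF(-), where Eomes and Mixl1 rose, Epcam, an epithelial adhesion molecule, rose as well (0.62, adjusted p = 0.00051). There 4 genes of this list rose and 1 fell, where 4.04% of all tested genes rose and 3.68% fell. The list holds epithelial as well as mesenchymal genes, so these counts do not give a direction of the transition. The largest rise was that of the epithelial gene Cldn6 (1.29, adjusted p = 2.72e-05), and Twist1 rose by 0.63 (adjusted p = 0.0398). The 1 that fell was Zeb1 (-1.36, adjusted p = 8.55e-06).

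**Figure D4:**
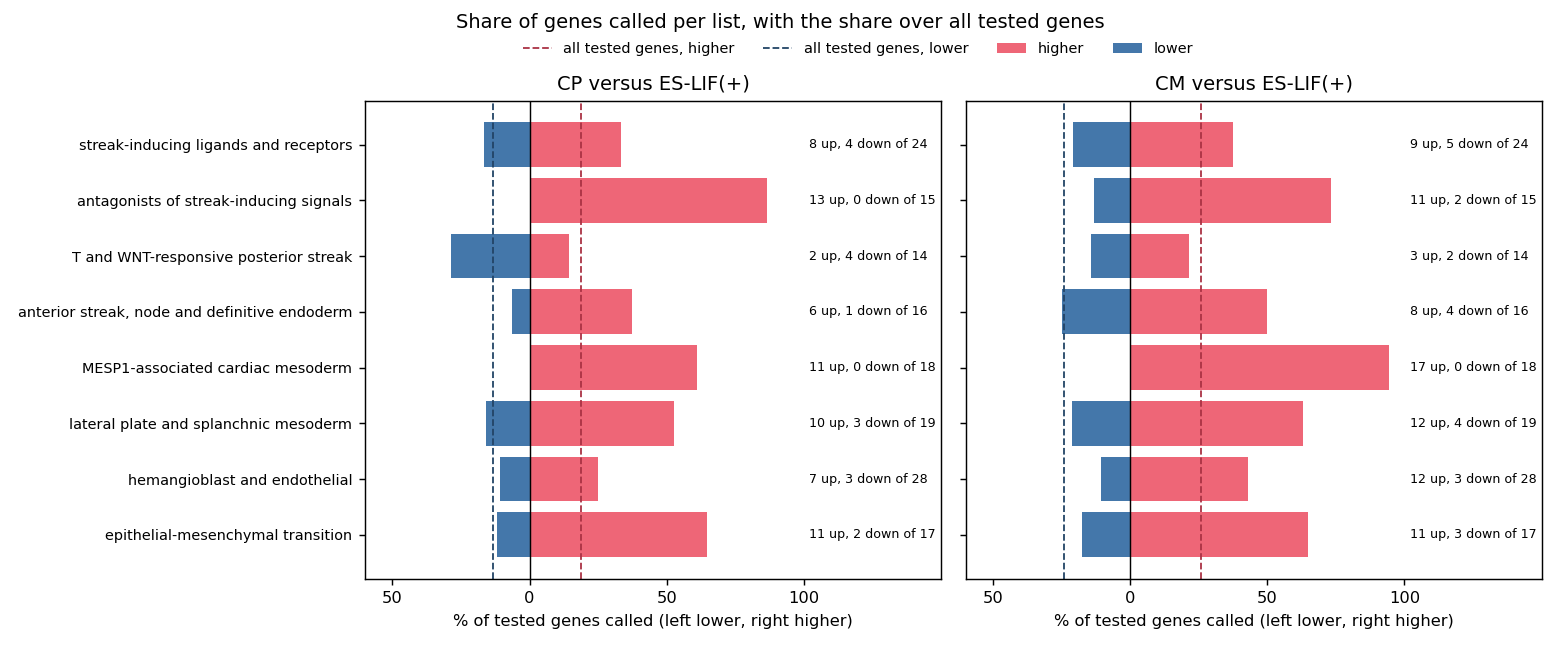
Share of the tested genes of 8 lists called higher (right) or lower (left), in percent, in CP versus ES-LIF(+) and CM versus ES-LIF(+), with the counts beside each bar. Dashed lines mark the share over all tested genes, 18.9% higher in CP and 25.8% higher in CM. Antagonists reach 13 of 15 in CP and cardiac mesoderm genes 17 of 18 in CM. The WNT-responsive posterior streak genes, with 2 of 14 higher in CP and 3 of 14 in CM, lie near the dashed lines for higher genes in both panels.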

How the data were processed

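RNA from 12 cultures was measured on Affymetrix Mouse 430 2.0 arrays, 3 per stage, and the study states that they are biological replicates. The deposited intensity values are signals of Microarray Suite 5.0, which the authors scaled per array: the mean signal with 2% trimmed at each end was 496 to 497 on every array. Of 45101 probe sets, 64 controls were left out, and 26083 that exceeded the array median on at least 3 arrays were tested. A gene was represented by the probe set of highest mean signal among those that the platform annotation assigns to it alone. Log2(signal + 16) was fitted with 1 mean per stage in limma 3.58.1 under R 4.3.3, with moderation and an intensity trend. P-values were adjusted by Benjamini-Hochberg over all tested probe sets, and the fit was tested on simulated data. A difference was called at a fold above 1.5 and an adjusted p under 0.05. Detection flags were not used.

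The genes and lists were chosen with earlier results of these data known. The genes named are the members, the 3 genes most correlated with each, the 3 largest called rises and falls of each list per comparison, and Nodal, Wnt3, Bmp4, Tbx6, Mesp2, Etv2, Tal1, Foxf2, Evx2, Vegfa and Flt1. Marker genes (Sox17, Msln, Tie1, Esam, Cldn5, Robo4, Afp, Apoa1, Apob and the globins) fall outside this rule and were picked with their values in view. Alternatives changed the scaling, pseudocount, filter, variance trend, test, probe set rule, fold limit, arrays in the fit and replicate block, and left out each array.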

Additional observations from a re-analysis of the deposited data

How the results depend on the processing

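Of 954 values of single members recomputed under the alternatives, 919 kept their direction and their side of the threshold. The 15 that turned direction were all of changes not called: Kdr in ES-LIF(-) versus ES-LIF(+) was -0.0116 after median centring and -0.16 to 0.13 with single arrays left out; Evx1 in CP versus ES-LIF(+) was -0.27 after centring, -0.18 after quantile normalization and -0.24 to 0.28 with arrays left out. Mixl1 in CP versus ES-LIF(-) was -0.0384, -0.00716 and -0.0490 to 0.44 in the same order. Mesp1 in CP versus ES-LIF(+) was -0.000996 after quantile normalization. With the mean over its probe sets, Foxf1 was 0.0822 in ES-LIF(-) versus ES-LIF(+) and 0.13 in CM versus CP, and with arrays left out the first was -0.28 to 0.0247. With a filter on 6 arrays, Gsc and Evx1 were not tested, and of the other 5 members 5 changed across the stages. Called were 2 in ES-LIF(-), 3 in CP and 5 in CM versus ES-LIF(+), 1 in CP and 5 in CM versus ES-LIF(-), and 3 in CM versus CP. With a fold above 2 the number called, of 7, was 1 in ES-LIF(-) versus ES-LIF(+) and 2 in CM versus CP. Mixl1 in CP versus ES-LIF(+), with a fold of 1.99, and Eomes in CM versus ES-LIF(-), with a fold of 1.59, also fell short of this limit. The number called was 1 in ES-LIF(-) versus ES-LIF(+) with the arrays of these 2 stages alone, where Mixl1 was 0.76 (adjusted p = 0.0819). With single arrays left out the counts were 6 to 7 across the 4 stages (6 without CM replicate 1 or CM replicate 2). Against ES-LIF(+) they were 1 to 3 for ES-LIF(-), 4 to 5 for CP and 7 for CM. Against ES-LIF(-) they were 2 to 3 for CP and 5 to 7 for CM, and CM versus CP gave 3 to 4. The titles link arrays of different stages by their replicate number only. Of 18 same-numbered pairs, 0 had a correlation of their deviations over 0.1 (-0.05 to 0.10), and 7 correlated best with their own number. With a replicate block the counts were 7 across the stages and 2, 4 and 7 against ES-LIF(+), 2 and 6 against ES-LIF(-) and 4 in CM versus CP, as without it. By the order of the sample records, CP replicate 1 falls with replicate 2 of the other stages, and CP replicates 2 and 3 fall with their replicate 3. A block by replicate number does not follow these runs of records, and an effect of the runs was not tested. Signals near the array median limit what can be said of Gsc in stem cells and of Evx1 outside CM replicates 1 and 2.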

Other observations

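Transcripts of the Hedgehog pathway genes Gli1, Gli2 and Ptch1, from the lateral plate list, fell in CP and CM against ES-LIF(+). They were the 3 of the 19 tested genes of this list called lower in CP. Gli3 and Hhip, Hedgehog genes also on the list, were thus not called lower in CP, so the fall is that of named genes and not of the whole pathway. Gli1, a transcriptional target and effector of the pathway, read 744.2, 735.1 and 1024.4 in ES-LIF(+), 174.2, 352.9 and 212.7 in ES-LIF(-), 288.5, 290.4 and 276.6 in CP and 161.7, 115.6 and 94.5 in CM. The ES-LIF(+) arrays lay above all others and the CM arrays below all others. It changed by -1.74 in ES-LIF(-) (adjusted p = 0.000215), -1.48 in CP (adjusted p = 0.00012) and -2.61 in CM (adjusted p = 1.73e-07) against ES-LIF(+). Ptch1, the Hedgehog receptor and itself a target, changed by -1.43 in CP (adjusted p = 7.46e-06) and -2.11 in CM (adjusted p = 4.93e-08) against ES-LIF(+). Gli2, another effector of the pathway, changed by -0.94 in ES-LIF(-) (adjusted p = 0.000512), -0.69 in CP (adjusted p = 0.00106) and -2.42 in CM (adjusted p = 1.72e-09) against ES-LIF(+).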
